A study of Mus musculus with 6 samples.

Results

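Blastocysts made dormant in culture by DOX-induced let-7 were compared, gene by gene, with blastocysts activated on day 4. The comparison rests on 2 arrays titled DOX-7g (day 7) and 2 arrays titled D4-act-7g (day 4), of 6 Mouse Gene 2.0 ST arrays in all. A gene entered through its brightest probeset among those that carry exactly 1 symbol. Of 22180 such genes, 14020 reached the array's median on at least 2 of the 6 arrays and were tested. Both groups, the activated controls included, came from let7g-transgenic mice, and 10 blastocysts were pooled for each array. The remaining 2 arrays, Dor-7g, hold day 7 blastocysts of such mice whose dormancy was kept in the uterus, and they are given beside the 2 compared groups where a result touches them.

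The mouse line, the promoter that drives the let-7g transgene, the age of the mice and any DOX or culture given to D4-act-7g are not given in the sources used here. The groups differ in day, and any effect of day, of culture, of DOX and of let-7 induction cannot be told apart. Whether arrays within a group stem from different mothers is not stated, so p-values measure only the spread between these arrays, which may be technical. The array values also cannot tell fewer cells of a type from less RNA per cell.

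The let-7 family are microRNAs, short RNAs that pair with messenger RNAs mainly through the seed near their 5′ end and lower the stability or translation of the paired message. In many animals they rise as cells stop dividing and differentiate, and known targets include genes of growth and of the cell cycle. A blastocyst in diapause, the dormant state that precedes a delayed implantation, keeps its outer trophectoderm and its inner cells alive while division and protein synthesis run low. The mature sequences of the transgene's microRNA and of 3 relatives, from RefSeq (build GRCm38.p6), are shown because they share the stretch through which they would read their targets. The seed, bases 2 to 8, is in capitals:
mmu-let-7g-5p: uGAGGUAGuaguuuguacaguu
mmu-let-7i-5p: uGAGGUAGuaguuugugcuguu
mmu-let-7a-5p: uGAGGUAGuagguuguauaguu
mmu-miR-98-5p: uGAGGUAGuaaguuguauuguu

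Among RefSeq's entries, 10 mature let-7 and miR-98 sequences carried this seed. On the arrays, 14 probesets name 12 let-7 or Mir98 genes, and 13 of the 14 lay below the array's median on all 4 compared arrays. Mirlet7g read 3.46 and 3.20 log2 units on the DOX-7g arrays and 3.31 and 3.56 on the D4-act-7g arrays, so the groups overlapped at a dim level. Mirlet7a-1, the 1 probeset above the median on all 4, read 5.53 and 5.65 against 5.29 and 5.66, a change of 0.11 ± 0.33 (limma, adjusted p = 0.977). Mirlet7a-2 passed the filter only through the Dor-7g arrays and did not pass the test (-0.63 ± 0.20, adjusted p = 0.311). The sources used here do not say whether these probesets can see a mature microRNA, so they were not used to check that let-7 was induced.

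All levels and changes below are log2 units of the deposited normalized signal. A change is the mean of the 2 DOX-7g arrays minus the mean of the 2 D4-act-7g arrays, given ± limma's moderated SE, and a gene is called where its p, adjusted over all 14020 genes by the Benjamini-Hochberg method, is under 0.05. The 4 compared arrays had medians of 4.62 to 4.66 over all probesets. Pearson's r across probesets, which are not independent replicates, was 0.969 within DOX-7g, 0.978 within D4-act-7g and 0.944 to 0.948 between them. The array Dor-7g replicate 1 stood apart (median 4.87, r of 0.899 to 0.919 with the others) and enters this comparison through the shared estimate of the spread, the choice of brightest probeset and the filter, by which 67 genes were tested through the Dor-7g arrays alone.

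Between DOX-7g and D4-act-7g, 134 genes were called (0.956% of those tested). Of these, 99 were higher in DOX-7g (0.706%) and 35 were lower (0.25%), while the median change of all genes was -0.05. Over all probesets that passed the same filter, named or not, 247 of 22564 were called (1.09%). Large rises outnumbered large falls: 61 of the 99 rises came to at least 3 log2 units and 31 to at least 5, and 11 of the 35 falls came to 3 or more. Of the 99, 36 lay below the array's median on both D4-act-7g arrays and 28 passed the filter through the DOX-7g arrays alone, so those 28 had to differ, and neither their p-values nor a call that held is support for them. Among those named below they are AF067061, Zscan4b, Zscan4e, Gm5662, Gm2016, Gm2035, Tcstv1, Tdpoz8, Pramel16, Pramel19, Pramel20, Rhox13, Sva, Mup3, Rpph1, H4c17, Ly6g and Btg2. Some other called rises had just 1 further array at or above its median, so they too needed the DOX-7g arrays to pass. Among those named below these are Usp17lc, Pramel17, Iqcf1, Tdpoz9 and D13Ertd608e, and their p-values and held calls are not support either. In the same way, 3 of the 35 falls passed through the D4-act-7g arrays alone (Lhfpl5, Stfa2l1 and Slc25a41). Their p-values and held calls are not support for them. A level under the array's median was not shown to be above background, so no fold is given against one. Of the 35, 5 lay below it on both DOX-7g arrays. The count was 296 when the 2 Dor-7g arrays, or either of them, were left out. It was 47 with D4-act-7g replicate 1 left out and 43 with its replicate 2, 67 with the first DOX-7g array left out and 46 with the second. Of the 134 calls, 31 held whichever of the 6 arrays was left out, and "held" is used below in that sense.

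**Figure D1:**
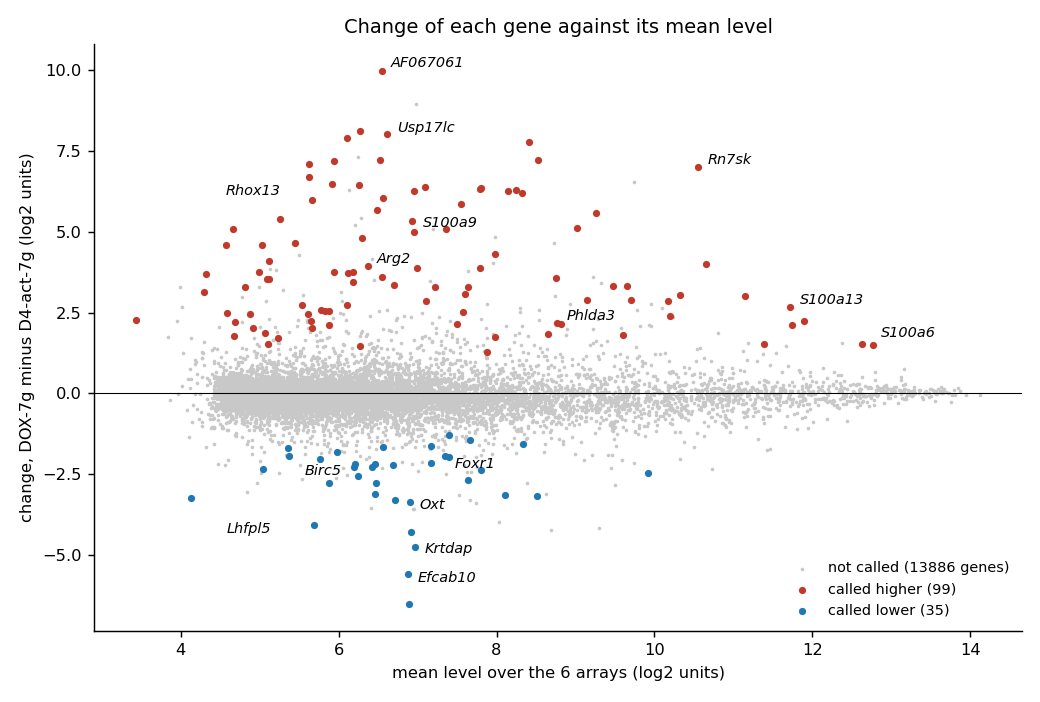
Change of each of the 14020 tested genes (vertical axis, DOX-7g minus D4-act-7g, log2 units) against its mean level over the 6 arrays (horizontal axis, log2 units); red points are the 99 genes called higher, blue points the 35 called lower and grey points the 13886 not called. The largest rise is that of AF067061, at 9.97, and the rises reach further from 0 than the falls.

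Transcripts of the 2-cell-like state made up the largest group of rises. This state is a set of genes that the mouse embryo switches on at its first burst of transcription, and that blastocysts and stem cells normally keep low. Of 22 tested members of the list, 14 were called higher, where 0.706% of all genes were, and none lower. The median change was 4.35 against -0.05 over all genes. One of the 14 is Arg2, a gene of arginine metabolism that also stands in the polyamine list. All 5 tested Zscan4 genes, zinc finger genes known for telomere maintenance in stem cells, were called. Zscan4e read 7.98 and 7.48 in DOX-7g against 3.02 and 3.23 in D4-act-7g and 2.89 and 2.84 in Dor-7g, and Zscan4c read 7.92 and 9.53 against 5.01 and 4.91, with 4.86 and 4.90 in Dor-7g. In both, each DOX-7g array stood above all 4 others. Zscan4e (4.6 ± 0.23, adjusted p = 0.000855) and Zscan4a held, whereas Zscan4c (3.77 ± 0.50, adjusted p = 0.0397), Zscan4d (5.31 ± 0.46, adjusted p = 0.00967) and Zscan4b (4.09 ± 0.55, adjusted p = 0.0406) did not. Against Dor-7g, Zscan4e was higher by 4.86 ± 0.23 (adjusted p = 0.00057) and Zscan4c by 3.85 ± 0.50 (adjusted p = 0.0319). The fit called 1.16% of genes between DOX-7g and Dor-7g, and 0.984% between Dor-7g and D4-act-7g. Of the 14, 5 passed the filter through the DOX-7g arrays alone (Zscan4b, Zscan4e, Gm5662, Gm2016 and Tcstv1). Neither their p-values nor a call that held is support for these 5. The same holds for Usp17lc, another of the 14, which needed the DOX-7g arrays to pass. The list's calls fell to 8 of the 14 without either D4-act-7g array, to 13 without DOX-7g replicate 1 and to 12 without DOX-7g replicate 2. The list was put together with results of these arrays known, so its count is not independent evidence of its direction.

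Zscan4a, Zscan4b, Zscan4c and Zscan4d follow one another among the tested genes in RefSeq's gene order. The stretches before the starts of 3 of them are shown because members that moved together share them nearly base for base (RefSeq, GRCm38.p6). Capitals mark the longest stretch that is identical in all 3 within the 70 bases before the TATAAA, and the TATAAA itself.
Zscan4b: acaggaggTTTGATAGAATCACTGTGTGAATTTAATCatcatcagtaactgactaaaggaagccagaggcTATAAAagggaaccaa
Zscan4c: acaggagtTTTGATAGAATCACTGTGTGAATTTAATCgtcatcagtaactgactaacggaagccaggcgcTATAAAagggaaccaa
Zscan4d: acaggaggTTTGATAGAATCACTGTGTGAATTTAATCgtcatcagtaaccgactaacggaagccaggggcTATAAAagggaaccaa

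They lie at chr7:10905066-10905151 (minus strand), chr7:11005621-11005706 (plus strand) and chr7:11166198-11166283 (minus strand), upstream of the annotated starts. Each is 86 bases long, and the pairs are identical at 81 to 83 of them. Which of these copies an array probe read was not checked. The capital stretch of 29 bases, TTTGATAGAATCACTGTGTGAATTTAATC, was found on either strand in these 3 alone of 10881 tested genes with a RefSeq promoter (0.0276%), and in 4 of all 32851 promoters of the same length (0.0122%). TATAAA was found on either strand in 13 of 65 called-higher genes with a promoter (20%), in 3 of 22 called-lower genes with one (13.6%), in 10.1% of the 10881 and in 13.6% of all promoters. The 3 Zscan4 copies are among the 13.

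Other members of the list lay in runs of called genes, together with genes outside it. Gm2016, Gm2022 and Gm5662, members, and Gm2035 and Gm2046, which are not, are predicted genes that neighbour one another among the tested genes, and all 5 were called. Tcstv1, a member, and its neighbours D13Ertd608e and B020031M17Rik, outside the list, were called as well. In all, 6 such runs held 18 of the 99 called-higher genes, and no 2 called-lower genes were neighbours. Gm5662 read 11.58 and 11.79 in DOX-7g against 3.69 and 3.46 in D4-act-7g and 3.94 and 3.14 in Dor-7g. Its change was 8.11 ± 0.30 (adjusted p = 0.000281) and its other probeset gave 7.18. Tcstv1, named for its variable expression at the 2-cell stage, read 9.62 and 7.87 against 3.76 and 4.46 (4.64 ± 0.58, adjusted p = 0.0334), a call lost without either D4-act-7g array. Of 4 tested Tdpoz genes, of the TD and POZ domain family, 2 were called. Tdpoz9 read 11.47 and 10.14 against 4.05 and 3.14, with 3.69 and 6.62 in Dor-7g (7.21 ± 0.99, adjusted p = 0.0446), and Tdpoz8 read 7.02 and 6.95 against 3.74 and 3.68 (3.28 ± 0.28, adjusted p = 0.00836). Both lost their calls without any 1 of the 4 compared arrays. Tdpoz8 passed the filter through the DOX-7g arrays alone and Tdpoz9 needed them to pass, so neither p-value is support. Tdpoz2, the list's own member, was not called (1.94 ± 0.31, adjusted p = 0.0708).

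**Figure D2:**
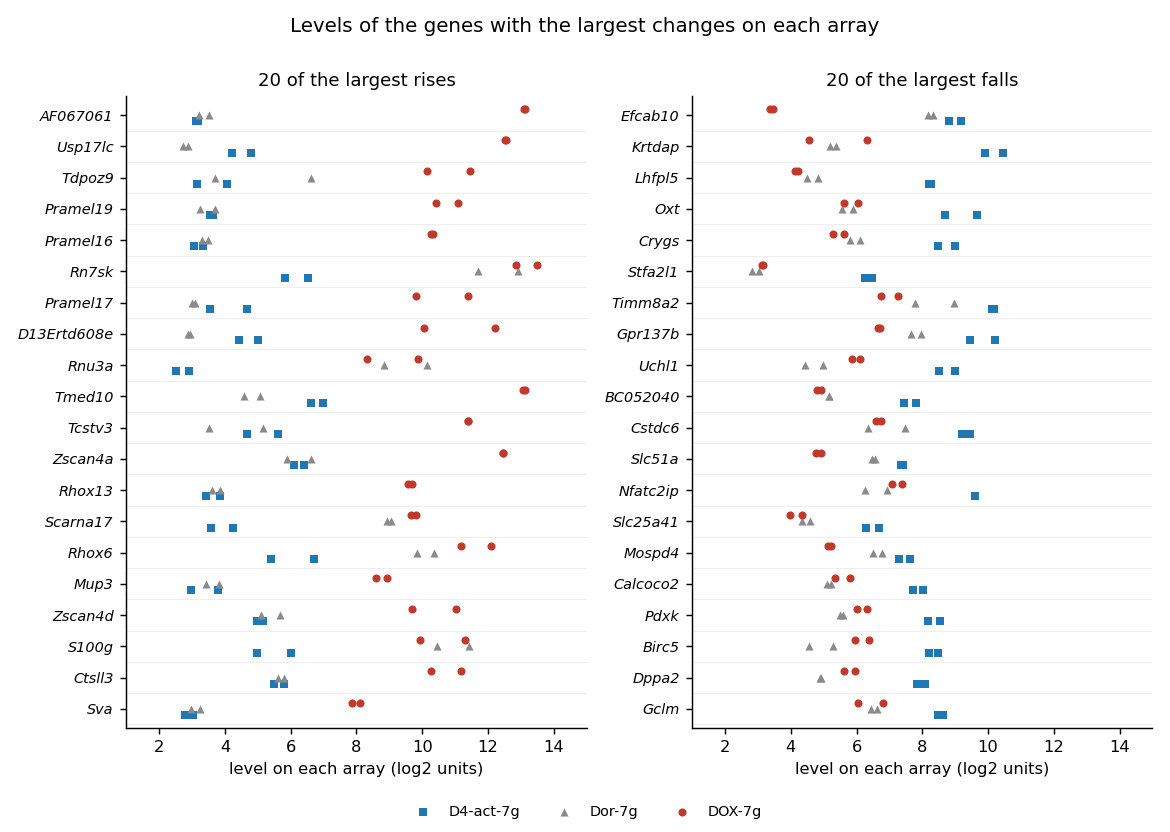
Level on each array (horizontal axis, log2 units) of 20 of the largest called rises and 20 of the largest called falls, in order of change; red circles are DOX-7g, blue squares D4-act-7g and grey triangles Dor-7g, 2 arrays each. In every row the 2 red and the 2 blue points do not overlap, while the grey points lie with the blue for some genes, such as Rhox13 and Efcab10, and with the red for others, such as Rn7sk and Oxt.

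Outside that list, genes best known from eggs, sperm or the reproductive tract were among the largest rises; they were chosen by size of change, and this grouping was made after their values were seen. The Pramel family holds leucine-rich repeat proteins of germ cells and early embryos. Of its 17 tested genes, 4 were called higher (Pramel16, Pramel17, Pramel19 and Pramel20), where 0.706% of all genes were. The family's median was 0.49, or -0.22 over the members above the array's median on at least 4 arrays. Pramel20 read 7.46 and 7.16 in DOX-7g against 3.47 and 3.67 in D4-act-7g and 4.23 and 3.91 in Dor-7g (3.74 ± 0.21, adjusted p = 0.00168). Pramel31 had a larger change that was not called (8.94 ± 1.94, adjusted p = 0.155), with 11.79 and 12.72 against 2.26 and 4.38. Rhox13, a homeobox gene of male germ cells, read 9.56 and 9.69 against 3.84 and 3.43, and 3.84 and 3.62 in Dor-7g (5.99 ± 0.21, adjusted p = 0.000276). Sva, a secreted protein of the seminal vesicle, read 8.10 and 7.86 against 2.78 and 3.01 (5.08 ± 0.20, adjusted p = 0.000337). Iqcf1, a calmodulin-binding protein of sperm, read 9.59 and 9.91 against 5.57 and 4.30 (4.82 ± 0.43, adjusted p = 0.0107). Mup3 (5.39 ± 0.33, adjusted p = 0.00213), a major urinary protein, and Ctsll3 (5.09 ± 0.33, adjusted p = 0.00322), a cathepsin-like protease gene, rose as well. Ctsll3 held, while Pramel17 was lost without D4-act-7g replicate 2 and Iqcf1 without either DOX-7g array. Rhox13, Sva, Mup3, Pramel16, Pramel19 and Pramel20 held too, but they passed the filter through the DOX-7g arrays alone. Their p-values and held calls are therefore not support for them. The same holds for the p-values of Pramel17 and Iqcf1, which needed the DOX-7g arrays to pass. The Pramel and Mup genes have near-identical copies, so the copy measured is uncertain.

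The X-linked Rhox homeobox cluster is active in the placenta and the gonads. Of its 6 tested members 3 were called higher, where 0.706% of all genes were, and the median was 2.38. Rhox5 and Rhox6 also read higher in Dor-7g than in D4-act-7g, while Rhox13 was dim in both of these groups. Rhox6, a marker of trophoblast, read 11.19 and 12.08 in DOX-7g against 6.72 and 5.39 in D4-act-7g, and 9.83 and 10.35 in Dor-7g. Its change was 5.58 ± 0.52 (adjusted p = 0.0122), and the difference from Dor-7g was 1.55 ± 0.52 (adjusted p = 0.356). Rhox5, the gene first used to define the family, read 11.73 and 11.69 against 9.12 and 8.19, with 10.31 and 10.90 in Dor-7g (3.05 ± 0.36, adjusted p = 0.0279). Rhox13 lay 5.89 ± 0.21 above Dor-7g, but it passed the filter through the DOX-7g arrays alone, so this difference is not support for it. Rhox9 (1.71 ± 0.36, adjusted p = 0.143), Rhox8 (0.17) and Rhox1 (0.13) were not called. The calls fell from 3 to 1 when the second array of either group was left out and to 2 without DOX-7g replicate 1. Of 12 tested genes of trophoblast giant cells, the invasive cells of the outer layer, Rhox5 and Rhox6 alone were called, both higher. The share called higher among all genes was 0.706%, and the list's median was 0.32.

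S100 proteins are small calcium-binding proteins. Here 5 of 15 tested genes of the family were called higher, where 0.706% of all genes were, and none lower, with a median change of 1.5. Both DOX-7g arrays stood above both D4-act-7g arrays for 11 of the 15, against 19.2% of all genes tested. S100a9, a subunit of the secreted calprotectin of neutrophils, read 9.55 and 9.55 against 4.49 and 4.6, and 7.10 and 6.41 in Dor-7g. The change was 5.00 ± 0.26 (adjusted p = 0.00112), and it held. It also exceeded Dor-7g by 2.79 ± 0.26 (adjusted p = 0.00988). S100a8, the other subunit, read 10.91 and 10.12 against 3.28 and 3.16, but 2.81 and 7.18 on the Dor-7g arrays, and with that spread it was not called (7.30 ± 1.31, adjusted p = 0.0949). S100g, known for calcium binding in gut and uterus, read 9.93 and 11.31 against 4.97 and 6.01, with 10.46 and 11.44 in Dor-7g (5.13 ± 0.60, adjusted p = 0.0279).

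S100a1 and S100a13, neighbours among the tested genes, rose from brighter levels. S100a1, a regulator of calcium handling in muscle, read 11.67 and 11.60 against 8.21 and 9.02, and 13.16 and 13.22 in Dor-7g (3.02 ± 0.29, adjusted p = 0.0131). S100a13, which takes part in the release of growth factors without a signal peptide, read 12.42 and 12.45 against 9.84 and 9.70, and 13.13 and 12.81 in Dor-7g (2.66 ± 0.19, adjusted p = 0.00434). S100a6 rose by 1.5 ± 0.19 (adjusted p = 0.0363), while the bright S100a10 (0.20) and S100a11 (0.15) were not called. Of the 5 S100 calls, 2 were left when either D4-act-7g array or the first DOX-7g array was left out, and S100a9 alone without DOX-7g replicate 2.

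**Figure D3:**
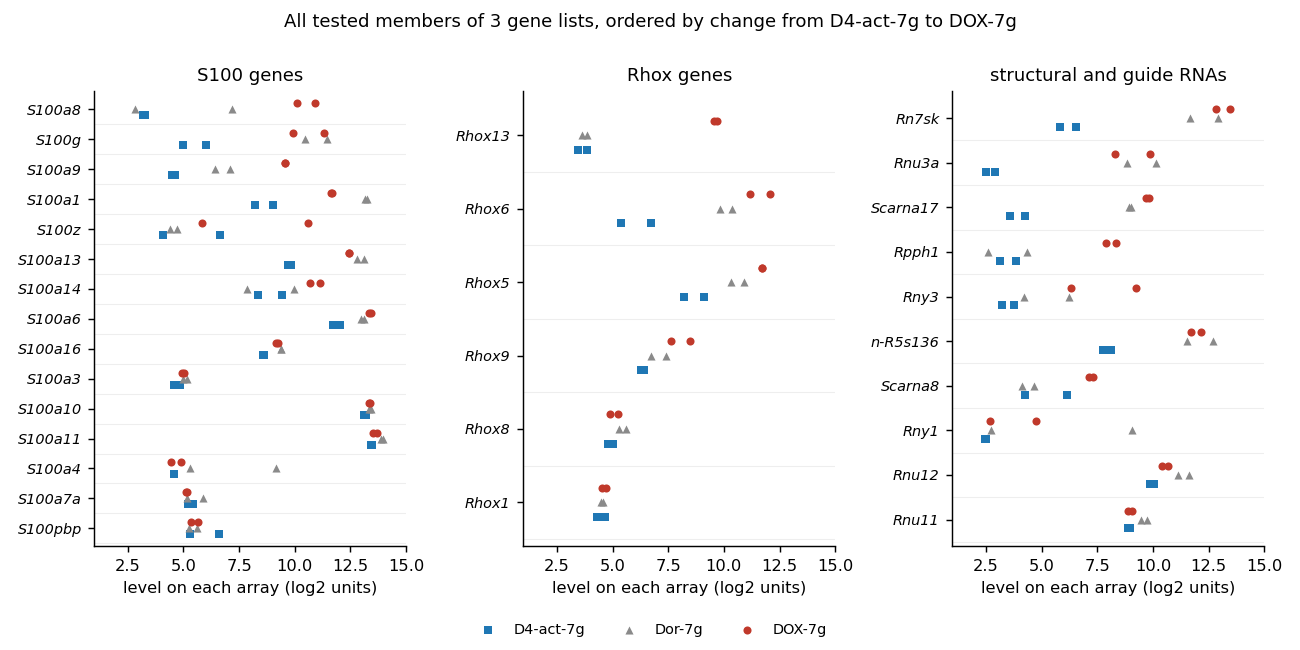
Level on each array (horizontal axis, log2 units) of the tested S100 genes (15), Rhox genes (6) and structural and guide RNAs (10), each ordered by its change from D4-act-7g to DOX-7g; red circles are DOX-7g, blue squares D4-act-7g and grey triangles Dor-7g, 2 arrays each. S100a9 and Rhox13 show both red points above both grey points, whereas S100a1 shows both grey points at the right.

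Small RNAs with a structural or guide role were the other group with large rises. Of 10 tested, 5 were called higher, where 0.706% of all genes were, and the median was 4.14. Rn7sk, the RNA that holds the elongation factor P-TEFb inactive, read 12.85 and 13.48 in DOX-7g against 6.53 and 5.82 in D4-act-7g, and 12.92 and 11.68 in Dor-7g (6.99 ± 0.49, adjusted p = 0.00417). Rnu3a, the U3 RNA of ribosomal RNA processing, read 8.31 and 9.86 against 2.50 and 2.92, and 10.14 and 8.84 in Dor-7g (6.37 ± 0.63, adjusted p = 0.0152). Scarna17, a Cajal body RNA that guides modification of spliceosomal RNA, read 9.67 and 9.82 against 4.24 and 3.57, and 9.04 and 8.94 in Dor-7g (5.84 ± 0.26, adjusted p = 0.000559). For these 3 both dormant groups lay far above D4-act-7g. Rpph1, the RNA of the RNase P enzyme that trims transfer RNAs, was dim in Dor-7g too, at 2.60 and 4.33. It read 8.33 and 7.88 in DOX-7g against 3.86 and 3.15 in D4-act-7g (limma, 4.6 ± 0.59, adjusted p = 0.0363), and lay 4.64 ± 0.59 above Dor-7g. It passed the filter through the DOX-7g arrays alone, so these differences are not support for it. The 5S ribosomal RNA copy n-R5s136 rose by 3.99 ± 0.41 (adjusted p = 0.0168). Rn7sk and Scarna17 held, and their other probesets gave 5.85 and 4.75. The other 3 did not, which left 2 calls when either D4-act-7g array or the second DOX-7g array was left out, and 3 without DOX-7g replicate 1. The RNA was released by heating embryos in water, and no value of RNA quality was used here.

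Of 26 tested histone genes 1 was called higher, where 0.706% of all genes were. This was H4c17, a histone H4 gene, with 6.99 and 6.58 against 2.95 and 3.23 (3.70 ± 0.42, adjusted p = 0.0259), a call lost without any 1 of the 4 compared arrays. It passed the filter through the DOX-7g arrays alone, so its p-value is not support for it. The list's median was 0.89, with the DOX-7g arrays above the D4-act-7g arrays for 15 of 26 (57.7%, against 19.2% of all genes). The linker histone H1f2 read 10.12 and 8.49 against 7.13 and 5.97, and 6.25 and 9.31 in Dor-7g (2.76 ± 1.08, adjusted p = 0.439).

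Several immune genes rose. Beside S100a9, Ly6g, the surface protein that marks mouse neutrophils, read 7.41 and 7.39 in DOX-7g against 3.65 and 4.08 in D4-act-7g and 3.75 and 4.25 in Dor-7g (3.54 ± 0.25, adjusted p = 0.00434), a call lost only without DOX-7g replicate 2. Ly6g passed the filter through the DOX-7g arrays alone, so neither its p-value nor its kept call is support for it. Ccl3, a chemokine, read 8.83 and 8.44 against 5.05 and 4.76, with 4.88 and 4.79 in Dor-7g (3.73 ± 0.22, adjusted p = 0.00174), and it held. Cyba, a subunit of the phagocyte oxidase, read 10.92 and 10.92 against 7.90 and 8.19 (2.88 ± 0.22, adjusted p = 0.00536). Batf3, a transcription factor of dendritic cells, read 9.56 and 8.69 against 5.51 and 6.17 (3.29 ± 0.40, adjusted p = 0.031). Cyba and Batf3 lost their calls without any 1 of the 4 compared arrays. Ccl3, Cyba and Batf3 lay outside the lists and were named after their values were seen.

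Of 19 tested markers of blood and immune cells 2 were called (S100a9 and Ly6g), where 0.956% of all genes were, and the median was 0.13. The call of Ly6g is not support here, since it passed the filter through the DOX-7g arrays alone. Both DOX-7g arrays lay above both D4-act-7g arrays for 8 of the 19 (42.1%, against 19.2% of all genes) and below them for 3 (15.8%, against 30.5%). Of 26 with a probeset, 17 reached the median of each DOX-7g array and 15 that of each D4-act-7g array. Their summed linear signal was 3839 and 3066 on the DOX-7g arrays, 1034 and 1392 on the D4-act-7g arrays and 1088 and 1544 on the Dor-7g arrays. Such a sum follows the brightest markers, here S100a8 and S100a9 on the DOX-7g arrays. The median level of the 26 was 4.926 and 5.151 in DOX-7g, 4.852 and 4.743 in D4-act-7g and 5.023 and 4.769 in Dor-7g. Fcer1g, an adaptor of Fc receptors, read 6.92 and 7.01 against 5.27 and 5.63 (1.52 ± 0.26, adjusted p = 0.0873). The myeloid genes Tyrobp (1.33 ± 0.51) and Lyz2 (0.80 ± 0.34) lay higher and Cd68 lower (-1.55), and none of these was called. The common leukocyte antigen gene Ptprc was dim on all 6 arrays (3.57 to 3.82), as were the neutrophil genes Retnlg (3.18 to 3.50) and Itgam (4.15 to 4.53), and Mpo was near the array's median (4.62 to 4.94). Of 17 tested uterine epithelium markers none was called (median 0.13), and for 8 both DOX-7g arrays lay above both D4-act-7g arrays (47.1%, against 19.2% of all genes). Spink1 read 5.87 and 9.24 in DOX-7g against 3.93 and 3.50, and Muc1 read 6.11 and 5.89 against 4.91 and 4.65 (1.22 ± 0.19, adjusted p = 0.0642). The list's summed signal was 3547 and 4091 in DOX-7g, 2451 and 2802 in D4-act-7g and 3228 and 3149 in Dor-7g. Its brightest marker, Wfdc2, read 11.22 and 11.16 in DOX-7g against 10.60 and 10.81 in D4-act-7g. The list's median level was 4.965 and 5.118 in DOX-7g, 4.801 and 4.841 in D4-act-7g and 5.266 and 4.91 in Dor-7g. Of 24 with a probeset, 15 and 18 were at or above the median on the DOX-7g arrays and 13 and 14 on the D4-act-7g arrays. The uterine gland markers Cxcl15 (3.52 to 4.14) and Calb1 (3.75 to 4.31) were dim on all arrays. No stroma marker of 13 and no cumulus or granulosa marker of 7 was called (medians 0.01 and 0.10), and the stroma marker Dcn was dim on the 4 compared arrays (3.67 to 3.87). The stroma markers Igf1 (5.82 and 6.80 against 4.45 and 4.38) and Des (5.44 and 6.18 against 5.00 and 4.72) read higher without a call (adjusted p = 0.174 and 0.302). The part of other cells in these rises was not tested.

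Genes of nitrogen, nucleotide and redox metabolism appeared on both sides. Arg2, the mitochondrial arginase that makes ornithine for polyamines, read 9.63 and 8.69 in DOX-7g against 5.23 and 5.22 in D4-act-7g and 4.75 and 4.68 in Dor-7g. It was 15.3-fold higher than in D4-act-7g (3.94 ± 0.32, adjusted p = 0.00717) and also exceeded Dor-7g (4.44 ± 0.32, adjusted p = 0.00369). Atp13a3, which moves polyamines across membranes, fell by 1.65 ± 0.19 (adjusted p = 0.0264; 6.21 and 6.11 against 7.91 and 7.71). These were the 2 called genes of 23 tested polyamine genes, where 0.956% of all genes were called. Odc1, the enzyme after arginase, changed by -0.95 ± 0.23 and was not called (adjusted p = 0.185). Cda, cytidine deaminase, read 10.17 and 10.91 against 7.39 and 7.05 (3.31 ± 0.33, adjusted p = 0.0158), and Gchfr, the feedback regulator of tetrahydrobiopterin synthesis, read 12.49 and 12.34 against 9.94 and 10.39 (2.25 ± 0.21, adjusted p = 0.0131). In Dor-7g they read 10.93 and 11.48 (Cda) and 13.14 and 13.04 (Gchfr). Gclm, a subunit of the first enzyme of glutathione synthesis, fell by 2.14 ± 0.28 (adjusted p = 0.0399). It was the 1 call of 26 tested Nrf2 and glutathione genes, where 0.25% of all genes were called lower. None of the calls in this paragraph held: Arg2 lost its call when either D4-act-7g array was left out, Cda and Gclm without either of these or DOX-7g replicate 2, and Atp13a3 and Gchfr without any 1 of the 4 compared arrays. Cda and Gchfr were named after their values were seen.

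A few genes known to restrain growth rose. Of 35 tested p53 targets and Cdk inhibitors, 2 were called higher, where 0.706% of all genes were, and the median was 0.16. Phlda3, which blocks the kinase Akt, read 10.12 and 10.19 against 8.06 and 7.89, and 8.26 and 8.07 in Dor-7g. This is a 4.53-fold rise (2.18 ± 0.18, adjusted p = 0.00752). Btg2, an antiproliferative gene, read 6.16 and 5.88 against 3.56 and 4.05 (2.22 ± 0.30, adjusted p = 0.0401). It passed the filter through the DOX-7g arrays alone, so its p-value is not support for it. Cdkn1a, the Cdk inhibitor p21, read 9.86 and 9.78 against 8.77 and 8.62 and was not called (1.12 ± 0.24, adjusted p = 0.141). Ddit4l, a relative of the mTOR inhibitor Ddit4 and named after its values were seen, rose by 2.51 ± 0.28 (adjusted p = 0.023; 9.60 and 9.82 against 7.28 and 7.12, and 6.19 and 5.46 in Dor-7g). Phlda3, Btg2 and Ddit4l lost their calls without any 1 of the 4 compared arrays. The heat-inducible chaperone genes Hspa1a (9.20 and 12.14 against 5.12 and 6.09) and Hspa1b (2.77 ± 0.51) were not called (adjusted p = 0.0986 and 0.1), nor was any other of 19 tested heat shock chaperones.

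Falls were fewer, and no gene list held more than 1 of them. Efcab10, which encodes an EF-hand protein, read 3.37 and 3.45 in DOX-7g against 8.80 and 9.18 in D4-act-7g. On the Dor-7g arrays it read 8.32 and 8.18, so the fall (-5.58 ± 0.20, adjusted p = 0.000276) set DOX-7g apart from both other groups (against Dor-7g -4.84 ± 0.20, adjusted p = 0.000384). Slc51a, a subunit of a steroid and bile acid transporter, read 4.76 and 4.92 against 7.42 and 7.36, and 6.56 and 6.46 in Dor-7g (-2.55 ± 0.17, adjusted p = 0.00344; against Dor-7g -1.67 ± 0.17, adjusted p = 0.0136). Mospd4 (-2.29 ± 0.20, adjusted p = 0.0107) was likewise lower than in Dor-7g (-1.45 ± 0.20, adjusted p = 0.0416).

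Most other named falls read low in Dor-7g too. Lhfpl5, a component of the mechanotransduction channel of hair cells, read 4.13 and 4.22 against 8.26 and 8.19, and 4.83 and 4.49 in Dor-7g (-4.05 ± 0.19, adjusted p = 0.000757). Oxt, the oxytocin precursor, read 6.03 and 5.61 against 9.66 and 8.69, and 5.90 and 5.56 in Dor-7g (-3.35 ± 0.36, adjusted p = 0.021). Stfa2l1, a stefin-type protease inhibitor gene, read 3.11 and 3.14 against 6.25 and 6.45 (-3.23 ± 0.18, adjusted p = 0.00165). Pdxk, the kinase that activates vitamin B6, read 6.31 and 6.01 against 8.55 and 8.18, and 5.59 and 5.51 in Dor-7g (-2.20 ± 0.21, adjusted p = 0.0146). Calcoco2, an autophagy receptor, fell by 2.28 ± 0.23 (adjusted p = 0.0161). Gpr137b, a lysosomal membrane protein, fell by 3.13 ± 0.29 (adjusted p = 0.0122), and Timm8a2, a chaperone of mitochondrial import, by 3.15 ± 0.42 (adjusted p = 0.0397). Krtdap (-4.73 ± 0.57), Crygs (-3.29 ± 0.26), Uchl1 (-2.77 ± 0.27), BC052040 (-2.76 ± 0.19), Cstdc6 (-2.66 ± 0.37), Nfatc2ip (-2.37 ± 0.26) and Slc25a41 (-2.32 ± 0.23) complete the falls chosen by size. Uchl1's other probeset gave -0.12. Efcab10, Lhfpl5 and Stfa2l1 held. BC052040 was lost without DOX-7g replicate 2 and Slc51a and Krtdap without either D4-act-7g array. The others named here were lost without 3 or all of the 4 compared arrays. Lhfpl5, Stfa2l1 and Slc25a41 passed the filter through the D4-act-7g arrays alone, so neither their p-values nor a held call is support.

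Genes of cell division lay lower in DOX-7g, by small amounts of which 1 was called. Birc5, the chromosomal passenger protein survivin, read 6.37 and 5.94 against 8.47 and 8.19, and 4.54 and 5.27 in Dor-7g (-2.18 ± 0.31, adjusted p = 0.0477), a call lost without any 1 of the 4 compared arrays. Of 63 tested G2/M and mitosis genes Birc5 was the 1 call, where 0.25% of all genes were called lower. A change below 0 was seen for 61 of the 63, against 58.0% of all genes, and the median was -0.39. Both DOX-7g arrays lay below both D4-act-7g arrays for 37 of the 63 (58.7%), against 30.5% of all genes. Mad2l1, a spindle checkpoint protein, read 7.71 and 7.19 against 8.83 and 8.77 (-1.35 ± 0.28, adjusted p = 0.14). Of 54 tested DNA replication genes none was called, 51 had a change below 0 and 38 did not overlap (70.4%), with a median of -0.36. Rrm2, the small subunit of ribonucleotide reductase, read 6.39 and 6.82 against 8.10 and 8.04, and 6.17 and 5.87 in Dor-7g (-1.47 ± 0.22, adjusted p = 0.0598), and its other probeset gave -1.72. The 16 tested G1 cyclins and their kinases had a median of -0.28 and no call. Measured against the D4-act-7g mean, the median member of the G2/M list was -0.55 and -0.22 for the pair of DOX-7g arrays, and -0.61 and -0.65 on the Dor-7g arrays. For DNA replication these were -0.36 and -0.34, and -0.35 and -0.30.

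**Figure D4:**
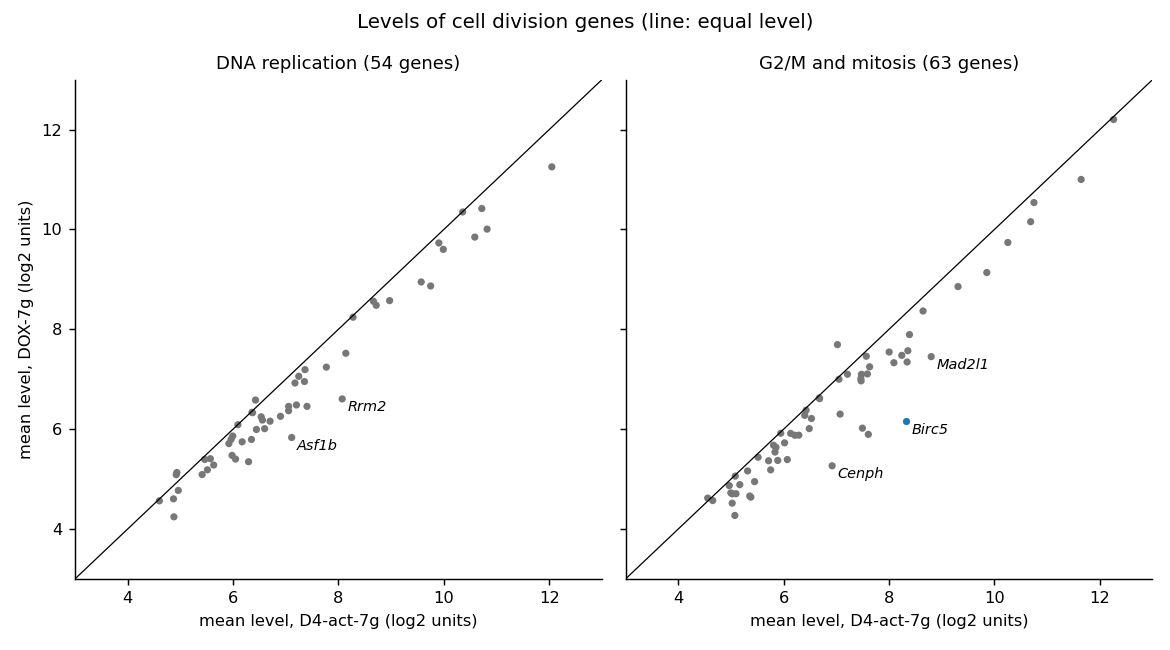
Mean level in DOX-7g (vertical axis) against mean level in D4-act-7g (horizontal axis), both in log2 units, for the 54 tested DNA replication genes and the 63 tested G2/M and mitosis genes; the line marks equal levels. Most points lie below the line (51 of 54 and 61 of 63), and Birc5, in blue, is the 1 called gene.

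Of 33 tested classic let-7 targets limma called 0, where it called 0.956% of all genes, so the count says little for a list this short. At an unadjusted p under 0.05 there were 2 of the 33, and 1544 of all 14020 genes. A change below 0 was seen for 21 of the 33, against 58.0% of all genes, and the median was -0.11. The changes ran from -2.38 to 0.30, and the largest fall, which was not called, is not among the members named below. For 13 of the 33 both DOX-7g arrays lay below both D4-act-7g arrays (39.4%, against 30.5% of all genes). Igf2bp3, an RNA-binding protein of fetal tissue and an established let-7 target, read 7.45 and 7.44 against 8.33 and 8.31, and 7.11 and 7.75 in Dor-7g (-0.88 ± 0.25, adjusted p = 0.255). Hmga2, a chromatin protein with many let-7 sites, read 5.47 and 5.59 in DOX-7g (-0.37 ± 0.20, adjusted p = 0.63). Lin28a, which blocks let-7 maturation, changed by -0.23 ± 0.19 (adjusted p = 0.801). Among the 16 tested genes of microRNA processing none was called (median -0.15). 

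Growth and protein synthesis genes gave no call either. Myc read 7.36 and 7.48 against 7.76 and 7.39 (-0.16 ± 0.20, adjusted p = 0.906), Mycn changed by 0.20 ± 0.27 (adjusted p = 0.915) and Mtor by -0.15 ± 0.19 (adjusted p = 0.899). The medians were -0.20 for 35 Myc targets, -0.02 for 14 genes of the Myc and Max network, -0.02 for 35 genes of mTOR and amino acid sensing and -0.14 for 42 translation factors. Ribosome biogenesis stood at -0.15 over 65 genes and cytosolic ribosomal proteins at 0.02 over 61. Changes below 0 were seen for 31 of the 35 Myc targets and 53 of the 65 ribosome biogenesis genes, against 58.0% of all genes. Both DOX-7g arrays lay below both D4-act-7g arrays for 20 of the 35 (57.1%) and 30 of the 65 (46.2%), against 30.5% of all genes. They lay above them for 3 and 6 (8.57% and 9.23%), against 19.2%. The ribosomal proteins had 16 below (26.2%) and 22 above (36.1%). Rpl26, a ribosomal protein, came nearest with 8.33 and 8.39 against 9.35 and 9.39 (-1.01 ± 0.16, adjusted p = 0.0708). Rps16 had the largest fall of the 61 ribosomal proteins (-2.10 ± 0.41, adjusted p = 0.118).

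Of the lineage markers, Krt18 and Krt8 were bright in both groups, while Pou5f1 and Nanog lay nearer the array's median. Krt18, a keratin of trophectoderm, read 13.37 and 13.33 in DOX-7g and 12.87 and 12.81 in D4-act-7g, and Krt8 read 11.30 and 10.90 and 10.59 and 10.77. The trophectoderm regulators Cdx2 (-0.09 ± 0.35), Gata3 (0.11 ± 0.26) and Eomes (0.00 ± 0.24) were not called. Pou5f1 read 5.83 and 5.84 against 6.11 and 6.04, Nanog 5.51 and 5.72 against 6.12 and 5.68, and neither was called (adjusted p = 0.77 and 0.793). The epiblast markers Sox2 (3.73 and 3.92 against 3.75 and 3.60) and Esrrb (3.94 and 3.94 against 4.16 and 4.08) were dim in both groups. Tdgf1 was dim in DOX-7g alone of these 2 groups (3.36 and 3.32 against 5.91 and 4.86) and was not called. Klf4 (-0.11) and Fgf4 (-0.19) were not called either. The primitive endoderm genes Gata4 (0.01), Gata6 (-0.41), Sox17 (0.12) and Pdgfra (0.11) were not called. Of 34 tested pluripotency and epiblast genes Dppa2, an activator of early embryonic genes, fell by 2.17 ± 0.20 (adjusted p = 0.0124; 5.61 and 5.96 against 8.07 and 7.84, and 4.91 and 4.88 in Dor-7g), a call lost without any 1 of the 4 compared arrays. Dppa2 was the 1 call of these 34, where 0.25% of all genes were called lower. The medians were -0.23 for pluripotency, -0.09 for 31 trophectoderm genes and 0.01 for 31 primitive endoderm genes. Both DOX-7g arrays lay below both D4-act-7g arrays for 18 of the 34 pluripotency genes (52.9%, against 30.5% of all genes). They lay above them for 5 (14.7%, against 19.2%). Trophectoderm had 11 of 31 below (35.5%) and 9 above (29.0%). Its keratin Krt19 was not called (1.91 ± 0.33, adjusted p = 0.0846). Plac1, a trophoblast gene, missed the threshold with 8.55 and 7.99 against 5.75 and 5.98 (2.41 ± 0.35, adjusted p = 0.0552), as did Sparc, a matrix protein of endoderm, with 9.16 and 8.83 against 7.79 and 7.63 (1.29 ± 0.19, adjusted p = 0.0597).

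**Figure D5:**
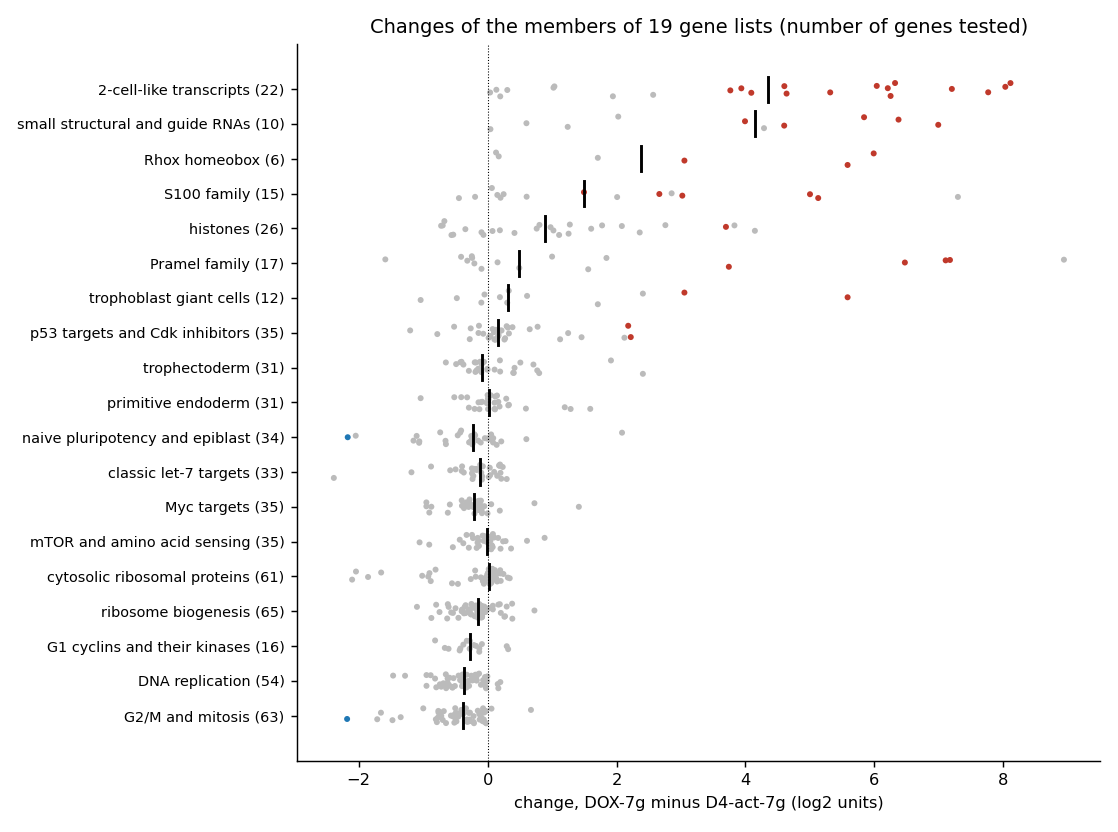
Change of each tested member (horizontal axis, DOX-7g minus D4-act-7g, log2 units) of 19 gene lists, with the number of genes tested in brackets; red points are called higher, blue called lower, grey not called, and black bars are medians. Lists at the top have medians up to 4.35, while the medians of DNA replication and of G2/M and mitosis are -0.36 and -0.39.

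The remaining lists held 1 call, Ly6g, in 23 tested Ly6 genes (median 0.02), where 0.956% of all genes were called. It passed the filter through the DOX-7g arrays alone. No gene was called, and the median lay between -0.24 and 0.13, in the lists of Bcl2 family and caspases (22 tested), integrated stress response (31), metallothioneins (5), interferon-induced genes (16), glycolysis (21), respiratory chain (73), fatty acid oxidation (26), cholesterol synthesis and uptake (23), autophagy and lysosome (41), blastocoel pumps and junctions (28), ErbB and implantation signalling (29), LIF, STAT3 and SOCS (25), FGF, ERK and feedback (27), DNA methylation and Tet (27), imprinted growth control (25), and oocyte and maternal genes (25). Slc7a3, a cationic amino acid transporter, read 5.42 and 5.43 against 3.94 and 4.29 (1.31 ± 0.21, adjusted p = 0.0714). Nupr1, a stress-induced chromatin protein, was at 10.07 and 11.17 against 8.42 and 7.52, with 11.81 and 11.60 in Dor-7g (2.65 ± 0.45, adjusted p = 0.0814). Khdc3, a maternal-effect gene of the egg, read 7.36 and 7.78 against 8.86 and 8.73 (-1.23 ± 0.21, adjusted p = 0.0846). Phlda2, an imprinted gene that limits placental growth, read 11.93 and 11.06 against 7.59 and 6.13, and 6.14 and 9.54 in Dor-7g (4.64 ± 1.13, adjusted p = 0.19).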

How the data were processed

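The authors deposited 1 log2 value per probeset and array (41345 probesets). Partek 6.6 and RMA are named in the submitters' processing notes. Probesets were named through the platform table and RefSeq (GRCm38.p6): 23521 had 1 symbol, 1814 several and 16010 none here. One limma fit (3.58.1, in R 4.3.3) over all 6 arrays gave each group its mean, without a block and with plain eBayes (3 residual and 2.81 prior degrees of freedom), so the groups share 1 estimate of the spread. The gene test was tested on simulated data. The comparison, the 47 gene lists and the naming rule were chosen with earlier results of these data known. The rule took the 25 largest rises and 20 largest falls with no overlap (leaving out predicted genes, pseudogenes, small nucleolar and microRNAs, and receptor families of smell and taste), each list's members with the smallest p, and fixed growth, let-7 and lineage genes. Other names were chosen after seeing values. Alternatives were other filters, normalizations, variance models, probeset rules, arrays and a replicate block. Replicate numbers were not treated as pairs, since no label says that a number marks a shared mouse, pool or day. Same-numbered deviations correlated at -0.01 for DOX-7g with D4-act-7g and at -0.14 for DOX-7g with Dor-7g. With 2 arrays a group these values cannot settle whether the numbers pair the arrays. A level under the array's median is called dim, and no detection calls were used. So few arrays limit how precise any value can be.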

Additional observations from a re-analysis of the deposited data

Results flagged for a closer look

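For 6 genes the change from D4-act-7g was called in opposite directions in the 2 dormant groups, higher in DOX-7g and lower in Dor-7g. The difference between DOX-7g and Dor-7g, tested in the same fit (limma, adjusted p over 14020 genes), was 9.74 for Usp17lc (adjusted p = 7.8e-05), a deubiquitinase gene of the Dub family. Its arrays read 12.52 and 12.56 in DOX-7g, 4.23 and 4.79 in D4-act-7g and 2.87 and 2.73 in Dor-7g, so no group overlapped another. Usp17lc needed the DOX-7g arrays to pass the filter, so its p-values and held call are not support for it. The difference was 9.03 for B020031M17Rik (adjusted p = 7.8e-05), which neighbours Tcstv1, and 6.32 for Gm20234 (adjusted p = 0.000322). For Tmed10, a carrier of vesicle cargo, it was 8.27 (adjusted p = 0.000103), but the gene's other 2 probesets gave changes from D4-act-7g of -1.04 and -1.0 against 6.29 for the brightest. For Cbr2, carbonyl reductase, it was 4.46 (adjusted p = 0.00154), with levels of 10.89 and 11.14 in DOX-7g, 8.75 and 8.99 in D4-act-7g and 6.86 and 6.26 in Dor-7g. For Nat8f2, an acetyltransferase gene, it was 3.89 (adjusted p = 0.0018). The calls against D4-act-7g held for Usp17lc, B020031M17Rik, Tmed10 and Gm20234 whichever array was left out, and were lost for Cbr2 without any 1 of the 4 compared arrays and for Nat8f2 without 3 of them.

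Probesets outside the gene test carried signal too. Of 6665 tested probesets that are not named here, 80 were called in the same comparison, 61 higher in DOX-7g and 19 lower, with changes from -7.63 to 8.34. Of 1159 with several symbols, 54 were called, 50 higher and 4 lower, with changes up to 9.14.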

How the results depend on the processing

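No called gene named above changed direction under an alternative. Against 134 calls (99 higher, 35 lower), a fit of only the 4 compared arrays gave 296 (185 and 111) and array weights gave 461 (260 and 201). A filter of at least 4 of 6 arrays left 61 rises. Leaving out 1 array gave 43 to 296 calls, 34 to 185 rises and 7 to 111 falls. With the replicate block 90 genes were called, 20 of them lower, although no label says that the numbers pair the arrays. Between DOX-7g and Dor-7g, 163 calls became 104 with array weights, 86 with only those 4 arrays, and 67 to 880 with 1 array left out. List medians near 0 changed sign in 20 cases, and the Pramel median went from 0.49 to -0.22 under the stricter filter. The cause of these shifts was not tested. Of the 134 genes, 132 were still called with no filter, 122 with a variance trend, 102 after centring and 103 after a second quantile normalization.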
